A study of Mus musculus with 12 samples.

Results

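Transcripts of 42 cell cycle and DNA replication genes were followed in mouse PYMT cells, a mammary tumour line named after the polyoma middle T antigen, that had received TGFB2, BMP4 or both. The genes were chosen by name, and each was found as 1 row among 54347 in the deposited table of counts. All 42 passed the filter on low counts that left 15319 genes for testing, and the lowest count of a member in any library was 61, of Cdc25c. A total of 20 members act around the entry into and passage through S phase, and 22 act in G2 and mitosis.

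Cells copy their DNA in S phase and divide it in mitosis. Transcription of the genes that license and fire replication origins is driven largely by E2F factors once cyclin E and cyclin-dependent kinases have relieved them of the retinoblastoma proteins. Genes for mitosis follow later, through B-MYB and FOXM1 bound to promoters that carry a CHR element beside CCAAT boxes, and the DREAM complex represses both sets in resting cells. Ligands of the TGF-beta family are known to hold many epithelial cells in G1. The study asked which programs TGFB2 and BMP4 set in motion when, on its own premise, they bring on dormancy. Dormancy itself was not measured in these libraries.

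The 12 libraries came from 4 groups of 3 biological replicates each, labelled TGFB2, BMP4, BMP4-TGFB2 (both ligands) and NT (neither ligand named). Exposure to a ligand lasted 3 days at a dose of 5 ng/mL, and cells of all groups were taken out of matrigel 2 days after the medium was changed. All libraries stem from a single cell line. The labels do not say what separated the replicates, and p-values therefore refer to the spread among the 12 cultures sampled. Levels are given as TPM, a transcript abundance scaled for gene length and depth, and differences as log2 fold changes between groups, from counts. Counts of members that were lower or higher within each replicate number are given in log2 CPM, which is scaled for depth alone, and in TPM. The shares of all genes beside these counts are in log2 CPM only, and the TPM counts have none. In RNA from whole cultures, fewer cycling cells and less of these transcripts per cell cannot be told apart.

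Promoter sequences are shown because the S-phase and mitotic sets differ in the motifs around their starts. RefSeq promoters (GRCm38.p6, 250 bases before to 50 after the start) matched 33 members by symbol, 17 S-phase and 16 mitotic. The motifs searched on both strands were E2F sites (TTTCCCGC, TTTGGCGC, TTTCGCGC or TTTGCCGC), the CHR element (TTTGAA) and the CCAAT box (CCAAT). An E2F site stood in 35.3% of S-phase and 6.25% of mitotic promoters, against 3.98% of the 10554 promoters of tested genes. A CHR stood in 17.6% of S-phase and 68.8% of mitotic promoters, against 12.1% of promoters of tested genes. A CHR together with a CCAAT box stood in 11 of the 16 mitotic and 3 of the 17 S-phase promoters, against 5.22% of promoters of tested genes. These shares count the whole window. The only E2F sites of Cdt1 and Mcm3 and the only CHR of Aurka, Bub1b, Cenpf and Plk1 lie after the start. Matches are a description of these windows and say nothing of binding.

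A few promoters are printed for genes described in the results, the 250 bases before the start, 5′ to 3′ on the gene's strand, with motif matches on either strand in capitals. Mcm5 (chr8:75109259-75109508, plus) and Mcm6 (chr1:128359706-128359955, minus) carry E2F sites on both strands that overlap each other, and CCAAT boxes. E2f8 (chr7:48881597-48881846, minus), an S-phase gene, Mki67 (chr7:135716380-135716629, minus) and Cdc20 (chr4:118437344-118437593, minus) carry CHR elements and CCAAT boxes and no E2F match in this stretch.
Mcm5: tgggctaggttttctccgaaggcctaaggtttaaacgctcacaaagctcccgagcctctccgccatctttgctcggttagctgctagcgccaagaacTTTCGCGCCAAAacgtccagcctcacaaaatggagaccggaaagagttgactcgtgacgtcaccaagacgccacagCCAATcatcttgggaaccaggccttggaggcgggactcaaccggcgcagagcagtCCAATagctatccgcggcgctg
Mcm6: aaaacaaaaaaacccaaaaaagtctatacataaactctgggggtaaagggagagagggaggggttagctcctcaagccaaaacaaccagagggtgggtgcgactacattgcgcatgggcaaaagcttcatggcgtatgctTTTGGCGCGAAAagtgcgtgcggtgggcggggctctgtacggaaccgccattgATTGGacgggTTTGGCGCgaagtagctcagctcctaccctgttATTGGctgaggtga
E2f8: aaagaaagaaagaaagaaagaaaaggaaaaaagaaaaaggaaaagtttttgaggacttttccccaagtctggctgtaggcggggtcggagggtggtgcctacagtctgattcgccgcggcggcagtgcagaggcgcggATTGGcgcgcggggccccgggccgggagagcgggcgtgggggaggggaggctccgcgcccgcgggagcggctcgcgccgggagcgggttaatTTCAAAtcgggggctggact
Mki67: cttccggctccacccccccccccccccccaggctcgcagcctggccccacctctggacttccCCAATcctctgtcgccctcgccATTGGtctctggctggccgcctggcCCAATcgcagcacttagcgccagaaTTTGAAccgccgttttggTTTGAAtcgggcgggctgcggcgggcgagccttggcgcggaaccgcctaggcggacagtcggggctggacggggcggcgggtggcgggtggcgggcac
Cdc20: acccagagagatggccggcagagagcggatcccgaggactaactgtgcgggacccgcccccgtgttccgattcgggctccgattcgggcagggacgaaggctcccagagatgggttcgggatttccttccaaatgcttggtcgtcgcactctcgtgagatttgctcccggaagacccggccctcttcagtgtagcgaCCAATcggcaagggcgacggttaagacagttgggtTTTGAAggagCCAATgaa

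The libraries with replicate number 1 stood apart for these genes. Summed over the 42 members, replicates 1 to 3 held 1145, 4518 and 4229 TPM with TGFB2. The sums were 3615, 6158 and 5651 TPM with BMP4. They were 816, 3173 and 3736 TPM with BMP4-TGFB2, against 3809, 5702 and 6137 TPM in NT. Replicate 1 was the lowest of its group in all 4 groups, and far lower in the 2 groups that had received TGFB2 than in the others. Across all genes the second principal component (14.4% of the variance) separated the replicate numbers. For this reason each count of members is given from the test by group alone and from the test with the replicate number as a block, and then without the replicate 1 libraries. The block removes a shift that all groups share in a replicate number. It does not remove a difference between treated and NT libraries that varies with the number. Over the 42 members the mean difference between TGFB2 and NT was -1.94, -0.45 and -0.59 log2 CPM units in replicates 1 to 3. Counts of members at an unadjusted p under 0.05 stand without the share of all genes at that threshold and are not read as results. The same holds for counts from limma, from DESeq2, without the filter or with single libraries left out.

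Other properties moved with the groups as well. Mitochondrial transcripts took 1.84% to 2.95% of counts with TGFB2, 1.40% to 1.76% with BMP4 and 1.77% to 2.91% with BMP4-TGFB2, against 1.14% to 1.95% in NT, and in each group they were highest in replicate 1. The 9 fibroblast markers summed to 7.73 to 13.3 TPM with TGFB2, 2.33 to 12.5 TPM with BMP4 and 5.04 to 13.7 TPM with BMP4-TGFB2, against 2.18 to 7.87 TPM in NT. In the test by group, 4 of the 7 fibroblast markers tested rose with TGFB2, as did 11.3% of all genes. The 8 epithelial markers summed to between 4478 and 5764 TPM in every library. Single epithelial markers differed between TGFB2 and NT within a replicate number. These differences ran from -0.33 to 0.79, -0.87 to 0.01 and -1.15 to 0.47 log2 CPM units in replicates 1 to 3. The 8 leukocyte markers summed to 4.13 to 13.6 TPM with TGFB2, 4.42 to 11.2 TPM with BMP4 and 4.41 to 11.6 TPM with BMP4-TGFB2, against 2.55 to 6.40 TPM in NT, and 1 of the 3 tested rose with TGFB2. Sums stayed at or below 3.44 TPM for 7 endothelial markers, with Ptprc, Cd3e, Pecam1, Cdh5, Fap and Lum under 1 TPM in every library. The part of mitochondrial transcripts and of fibroblast, leukocyte and epithelial markers in the results below was not tested.

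**Figure D1:**
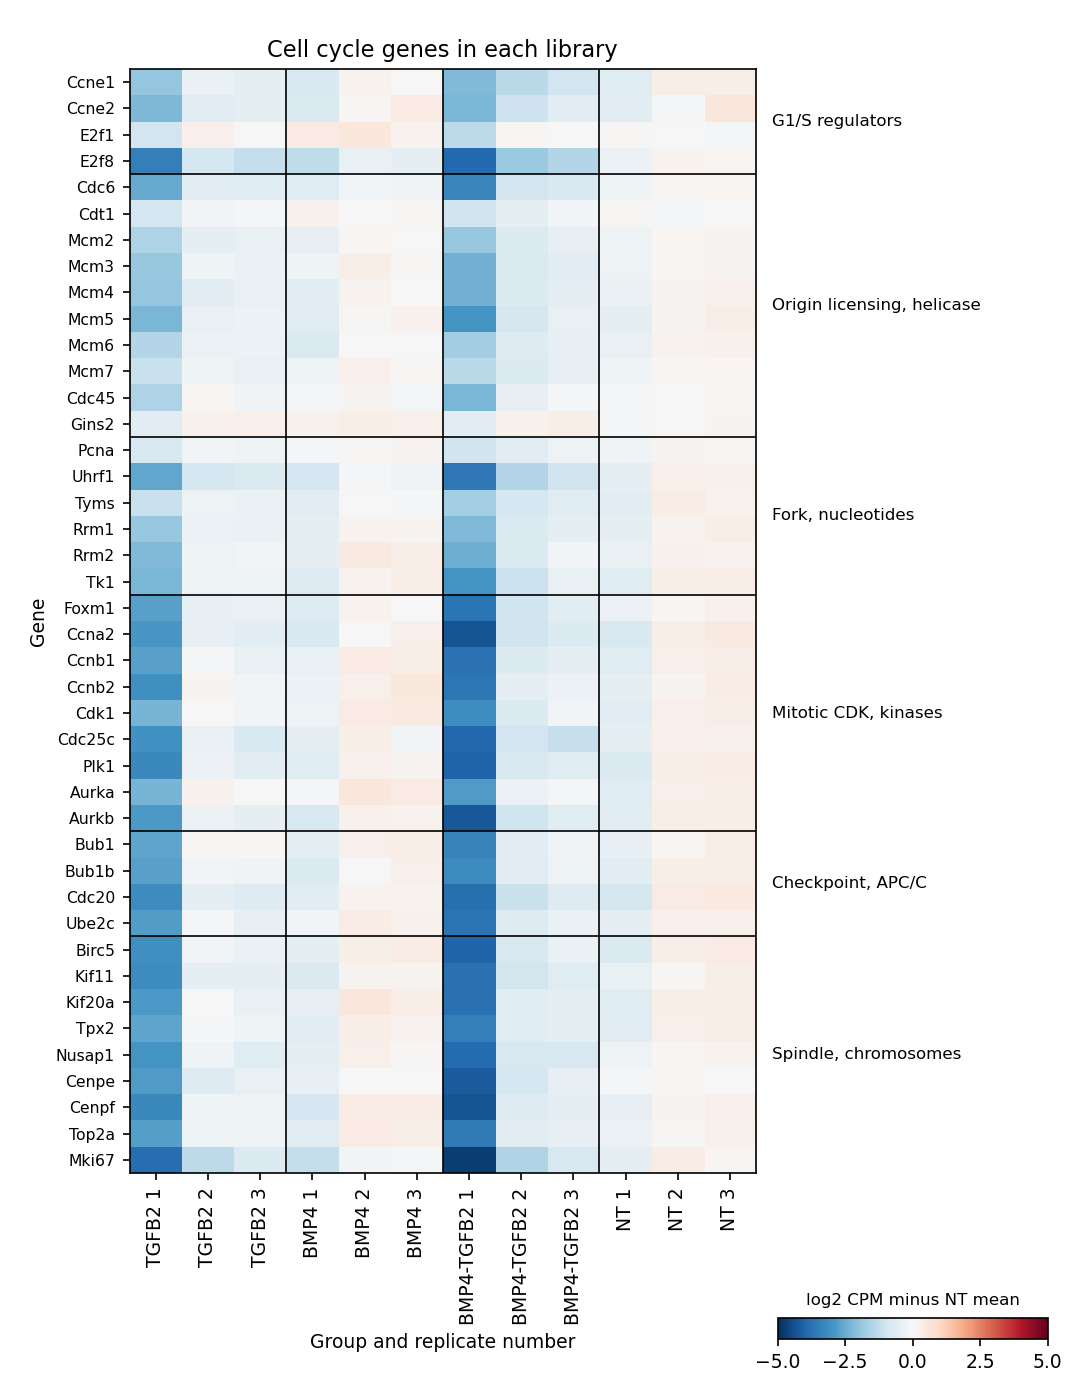
Each row is a gene and each column a library, ordered by group and replicate number; colour gives log2 CPM minus the NT mean of that gene (blue lower, red higher). TGFB2 replicate 1 and BMP4-TGFB2 replicate 1 are the darkest columns, with list means of -2.35 and -3.00.

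With TGFB2 the S-phase genes and the mitotic genes were both lower than in NT. Of the 42 members, 39 were lower in TGFB2 than in NT within each of the 3 replicate numbers in log2 CPM, as were 29.5% of all genes tested. The exceptions were E2f1, Cdc45 and Gins2. In TPM 33 were, and Aurka, Bub1, Ccnb2, Cdt1, Cenpf and Top2a were exceptions as well. The median log2 fold change was -0.68 for S-phase members and -0.78 for mitotic members, beside 0.01 over all genes. With groups alone in the model 0 members passed in edgeR (adjusted p under 0.05, Benjamini-Hochberg), where 11.1% of all genes were called lower. A single member, E2f8, had an unadjusted p under 0.05 there, and 1 member passed in limma voom, 1 in DESeq2 and 0 in limma on TPM. With the replicate number as a block 21 members fell, 15 of the S-phase and 6 of the mitotic genes, where 19.2% of all genes were called lower. Without the replicate 1 libraries 25 fell, 10 S-phase and 15 mitotic, where 13.3% of all genes were called lower. A total of 16 members fell in both of these fits. With the block and without replicate 1 together 32 fell, where 18.4% of all genes were called lower. In CPM 10 members had every TGFB2 library below every NT library, as had 19.2% of all genes. Medians without TGFB2 replicate 1 alone were -0.34 for S-phase and -0.29 for mitotic members, and the mitotic median was -1.18 without TGFB2 replicate 2. The 9 alternatives that left out no library alone gave S-phase medians between -0.82 and -0.54 and mitotic medians between -1.19 and -0.52.

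Mki67 and E2f8 had the largest falls. Mki67, which encodes the Ki-67 protein that coats mitotic chromosomes and marks cycling cells (ENSMUSG00000031004.8, chromosome 7, 135689784 to 135716361, minus strand, GRCm38), stood at 2.61, 15.6 and 24.6 TPM in TGFB2 replicates 1 to 3. It had 29.7, 46.7 and 40.9 TPM in NT. All 3 TGFB2 libraries lay below all 3 NT libraries, and replicate 1 was 3.34 log2 CPM units below its NT partner, against 1.65 and 0.77 units in the other numbers. The log2 fold change was -1.98 ± 0.54 with the block (± is the SE of a log2 fold change here and below; adjusted p = 0.0155) and -1.48 ± 0.83 without it (adjusted p = 0.232).

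E2f8, whose promoter holds a CHR and a CCAAT box, encodes an atypical E2F that represses E2F targets late in S phase (ENSMUSG00000046179.17, chromosome 7, 48866429 to 48881596, minus strand). It had 1.84, 11.3 and 9.21 TPM with TGFB2, against 17.6, 22.1 and 22.4 TPM in NT, again with no overlap. The log2 fold change was -1.81 ± 0.39 with the block (adjusted p = 0.00456) and -1.50 ± 0.62 without it (adjusted p = 0.108). Uhrf1, which brings maintenance DNA methylation to replicated DNA (ENSMUSG00000001228.14, chromosome 17, 56303321 to 56323486, plus strand), had 16.5, 57.4 and 65.0 TPM with TGFB2. Its NT libraries had 79.6, 124 and 121 TPM, all above the TGFB2 libraries. Its log2 fold change was -1.41 ± 0.32 with the block (adjusted p = 0.00624).

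The S-phase members with the smallest p in the blocked test were Ccne1, Ccne2, Mcm6 and Tyms. Ccne1, for the cyclin that drives entry into S phase, had 5.62, 18.2 and 17.6 TPM with TGFB2, against 16.5, 26.6 and 28.3 TPM in NT (log2 fold change -0.89 ± 0.17, adjusted p = 0.00235). TGFB2 replicates 2 and 3 lay above the lowest NT library, so the groups overlapped while every replicate number showed the difference. Ccne2, the second cyclin E gene, had 5.49, 22.7 and 21.3 TPM with TGFB2 and 17.7, 33.1 and 45.6 TPM in NT (-1.06 ± 0.20, adjusted p = 0.00250). Reads of Ccne2 are uncertain, since it shares 609 exon bases with Ints8 on the other strand, whose mean CPM is 178% of its own in unstranded libraries.

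Mcm6, a subunit of the replicative helicase, had 60.2, 155 and 152 TPM with TGFB2 and 140, 192 and 196 TPM in NT (-0.69 ± 0.14, adjusted p = 0.00325). Tyms, for thymidylate synthase, which makes the thymidine nucleotide, had 49.5, 104 and 88.2 TPM with TGFB2 and 79.0, 146 and 140 TPM in NT (-0.57 ± 0.12, adjusted p = 0.00338). The groups overlapped for both genes.

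Among the helicase and origin genes 6 passed in the blocked test with TGFB2, namely Cdc6, which loads the helicase on origins, Mcm2, Mcm4, Mcm5, Mcm6 and Mcm7, with log2 fold changes between -1.24 (Cdc6) and -0.56 (Mcm7). Mcm3 (-0.80 ± 0.29, adjusted p = 0.0537), the licensing factor Cdt1 (-0.36 ± 0.20), the helicase partner Cdc45 (-0.55 ± 0.37) and Gins2 did not pass. Genes for the replication clamp Pcna (-0.39 ± 0.12), for the ribonucleotide reductase subunits Rrm1 (-0.83 ± 0.21) and Rrm2 (-0.87 ± 0.31) and for thymidine kinase Tk1 (-0.92 ± 0.29) fell in the blocked test. Of the genes that fell there, Ccne2, Mcm7, Pcna, Rrm2 and Tk1 did not pass without the replicate 1 libraries. E2f1, for the activator of S-phase transcription, was at -0.23 ± 0.28 (adjusted p = 0.560).

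The mitotic members that fell with TGFB2 in the blocked test were Mki67, Cdc20, Cdc25c, Ccna2, Kif11 and Plk1. Cdc20, the activator of the anaphase-promoting complex (ENSMUSG00000006398.15, chromosome 4, 118432901 to 118437352, minus strand), had 16.5, 113 and 100 TPM with TGFB2, against 86.9, 195 and 217 TPM in NT (-1.38 ± 0.39, adjusted p = 0.0187). It shares 53 exon bases with Elovl1 on the other strand, whose mean CPM is 71.3% of its own. Cdc25c, for the phosphatase that activates Cdk1, had 2.48, 16.7 and 13.0 TPM with TGFB2, against 16.1, 27.7 and 31.2 TPM in NT (-1.33 ± 0.43, adjusted p = 0.0316). The cyclin A gene Ccna2 had 14.2, 81.3 and 74.0 TPM with TGFB2, against 64.9, 135 and 146 TPM in NT (-1.30 ± 0.44, adjusted p = 0.0402). It shares 510 exon bases with Exosc9 on the other strand, whose mean CPM is 30.9% of its own. In all 3 genes TGFB2 replicate 1 was lowest, and at least 1 of the other TGFB2 libraries lay above NT replicate 1.

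The other 16 mitotic members had log2 fold changes with TGFB2 between -1.33 (Cenpe) and -0.67 (Aurka) in the blocked test, and none passed. Averaged over all 22 mitotic genes, the replicate 1 difference between TGFB2 and NT was larger than over the 20 S-phase genes. The means were -2.39 and -1.45 log2 CPM units, and single genes of the lists overlapped. In mean log2 CPM relative to the NT mean, the mitotic minus the S-phase list was -1.14 in TGFB2 replicate 1 and -1.58 in BMP4-TGFB2 replicate 1, and it lay between -0.20 and 0.16 in the other 10 libraries. The plot of list means by library shows this pair of libraries apart from the rest.

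**Figure D2:**
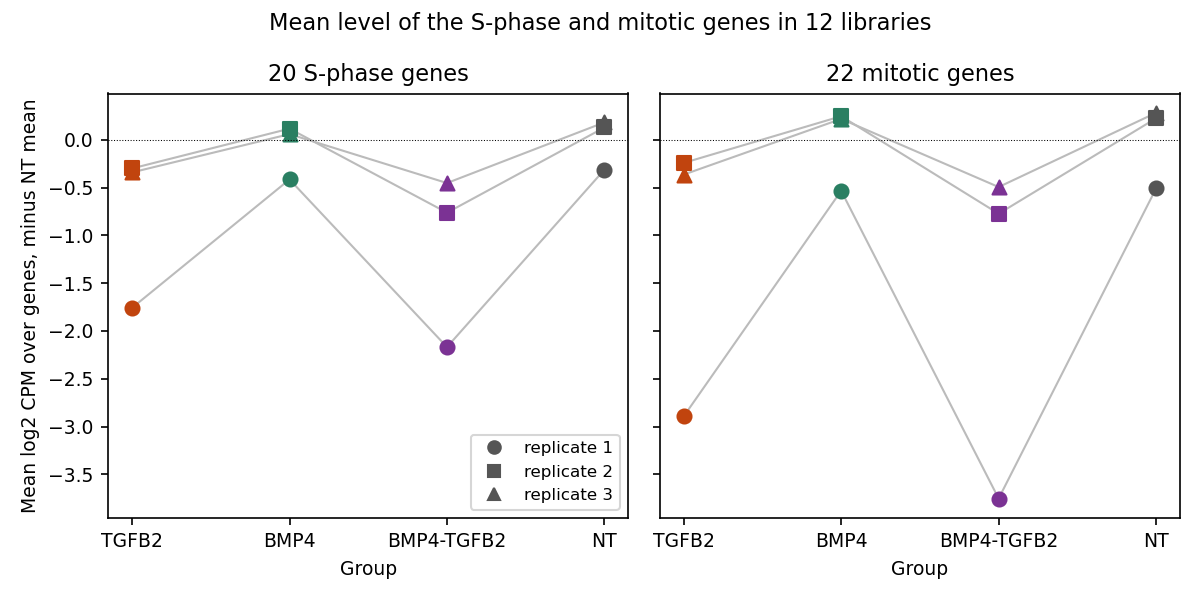
Each point is the mean log2 CPM over the 20 S-phase (left) or 22 mitotic genes (right) of 1 library, minus the NT mean; lines join libraries with the same replicate number. S-phase means of the TGFB2 and BMP4-TGFB2 replicate 1 libraries are -1.76 and -2.17, and mitotic means are -2.89 and -3.75.

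BMP4 alone left these genes near their NT levels. The median log2 fold change was -0.07 for S-phase and -0.03 for mitotic members, beside 0.00 over all genes, and both medians changed sign when single libraries were left out (0.06 and 0.16 without BMP4 replicate 1, and 0.06 and 0.09 without NT replicate 3). No member passed in edgeR by group, with the block or without the replicate 1 libraries, where 5.44%, 15.4% and 4.37% of all genes were called in either direction, or with both changes to the model, where 11.6% were. Limma voom, limma on TPM and DESeq2 also called 0, and the count at an unadjusted p under 0.05 was 0 by group and with the block and 5 without the replicate 1 libraries. Within each replicate number 13 members were lower and 7 higher in log2 CPM, against 26.1% and 25.1% of all genes, and in TPM 11 were lower and 4 higher.

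E2f8 was the member furthest below NT with BMP4, at 8.08, 16.1 and 14.0 TPM with BMP4 and 17.6, 22.1 and 22.4 TPM in NT. No BMP4 library reached the lowest NT library in E2f8, a separation that 12.1% of all genes showed, and its log2 fold change was -0.76 ± 0.37 with the block (adjusted p = 0.204). Mcm6 stood at 101, 177 and 164 TPM with BMP4 (-0.24 ± 0.14) and Tyms at 75.9, 124 and 110 TPM (-0.20 ± 0.12). Mki67 had 15.5, 35.0 and 34.8 TPM with BMP4 (-0.56 ± 0.51, adjusted p = 0.522), with the groups overlapping.

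On the higher side with BMP4 stood E2f1, Aurka, Gins2 and Cdk1. E2f1 was furthest above NT, at 47.9, 55.9 and 40.5 TPM with BMP4 and 41.3, 36.3 and 36.9 TPM in NT (0.37 ± 0.28, adjusted p = 0.435). Gins2, for a subunit of the GINS helicase complex, had 17.5, 32.6 and 33.0 TPM with BMP4 and 19.4, 36.2 and 32.1 TPM in NT (log2 fold change from counts 0.27 ± 0.16). In CPM, which is not scaled for length, its BMP4 libraries at 46.2, 48.0 and 47.5 all lay above its NT libraries at 36.4, 39.0 and 42.9, as did those of E2f1 and of 11.7% of all genes, so that the direction for Gins2 differed between the scales. Aurka, a kinase of the spindle poles, had 80.4, 136 and 113 TPM with BMP4 and 61.7, 103 and 115 TPM in NT (0.34 ± 0.39). Cdk1, the kinase that drives mitosis, had 229, 418 and 368 TPM with BMP4 and 210, 340 and 362 TPM in NT (0.22 ± 0.38). Kif11, the motor that separates spindle poles, was at 24.2, 47.2 and 43.8 TPM with BMP4 and 34.1, 42.5 and 51.1 TPM in NT (-0.19 ± 0.45). None of these 5 passed, and their groups overlapped in TPM.

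With both ligands the mean TPM of each of the 42 members was the lowest of the 4 groups. Of the 42 members, 40 were lower in BMP4-TGFB2 than in NT within each replicate number in log2 CPM, where 29.7% of all genes were, and the exceptions were E2f1 and Gins2. In TPM 41 were, and E2f1 was the exception. The median log2 fold change was -0.97 for S-phase and -1.15 for mitotic members, beside 0.01 over all genes (-0.59 and -0.64 without BMP4-TGFB2 replicate 1). With groups alone in the model 4 members fell, namely E2f8, Ccne1, Tyms and Mcm7, where 12.9% of all genes were called lower. With the block 34 fell, 16 S-phase and 18 mitotic, where 21% of all genes were called lower. Without the replicate 1 libraries 38 fell, 16 S-phase and all 22 mitotic, where 15.9% of all genes were called lower. These 38 included the 34 of the blocked test, and 38 also fell with both changes to the model, where 20.2% of all genes were called lower. In CPM 22 members had every BMP4-TGFB2 library below every NT library, as had 20.5% of all genes. The 4 that passed in neither were Cdc45, Cdt1, E2f1 and Gins2.

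The 4 calls by group alone were each lost when any of several single libraries was left out. In the 9 alternatives that left out no library alone, E2f8, Ccne1 and Mcm7 passed in all 9 and Tyms in 8. Leaving out NT replicate 2 or 3, or BMP4-TGFB2 replicate 1 or 2, ended all 4, with adjusted p up to 0.0815 for E2f8, 0.105 for Ccne1, 0.134 for Tyms and 0.149 for Mcm7. Mcm7 was also lost without NT replicate 1 (adjusted p = 0.0509), and Tyms with only these groups fitted (adjusted p = 0.0541). Mcm7 shares 64 exon bases with Cops6 and 321 with Ap4m1, both on the other strand. The mean CPM of these partners is 70.5% and 12.9% of that of Mcm7.

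E2f8 had 1.34, 5.96 and 7.28 TPM with BMP4-TGFB2, against 17.6, 22.1 and 22.4 TPM in NT. The log2 fold change was -2.38 ± 0.40 with the block (adjusted p = 0.000900) and -2.10 ± 0.63 without it (adjusted p = 0.0306). Mki67 had 1.34, 14.0 and 20.7 TPM with BMP4-TGFB2, against 29.7, 46.7 and 40.9 TPM in NT (-2.27 ± 0.55 with the block, adjusted p = 0.00782). Uhrf1 had 8.81, 40.7 and 50.9 TPM with BMP4-TGFB2, against 79.6, 124 and 121 TPM in NT (-1.95 ± 0.33 with the block, adjusted p = 0.000965). In none of the 3 genes did the groups overlap.

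Among the S-phase genes with the smallest p in the blocked test, Tyms had 35.6, 64.8 and 75.0 TPM with BMP4-TGFB2, below the 79.0, 146 and 140 TPM in NT (-1.05 ± 0.12, adjusted p = 7.15e-05). Ccne1 had 4.63, 9.31 and 11.2 TPM with BMP4-TGFB2, below the 16.5, 26.6 and 28.3 TPM in NT (-1.50 ± 0.17, adjusted p = 8.40e-05). Mcm6 had 49.3, 107 and 126 TPM with BMP4-TGFB2, below the 140, 192 and 196 TPM in NT (-0.94 ± 0.14, adjusted p = 0.000448). These 3 genes had no overlap, whereas Ccne2, with 5.56, 9.56 and 23.0 TPM against 17.7, 33.1 and 45.6 TPM in NT, did (-1.28 ± 0.20, adjusted p = 0.000712). All 6 Mcm genes fell with the block, between -1.35 (Mcm5) and -0.82 (Mcm7).

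Among mitotic genes Cdc20 had 10.8, 74.3 and 93.7 TPM with BMP4-TGFB2, against 86.9, 195 and 217 TPM in NT (-1.75 ± 0.40 with the block, adjusted p = 0.00542). Cdc25c had 1.35, 11.4 and 9.03 TPM with BMP4-TGFB2, against 16.1, 27.7 and 31.2 TPM in NT (-1.90 ± 0.44, adjusted p = 0.00599). Ccna2 had 5.20, 58.7 and 65.8 TPM with BMP4-TGFB2, against 64.9, 135 and 146 TPM in NT (-1.85 ± 0.45, adjusted p = 0.00835). Only Cdc25c of these 3 had no overlap between the groups. The kinases Plk1 (-1.69) and Aurkb (-1.79), the cyclin gene Ccnb1 (-1.51), the survivin gene Birc5 (-1.59) and the spindle genes Kif11 (-1.71), Tpx2 (-1.42) and Nusap1 (-1.72) fell with the block. Aurka, Bub1, Ccnb2 and Cenpe did not pass in that test and did without the replicate 1 libraries.

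**Figure D3:**
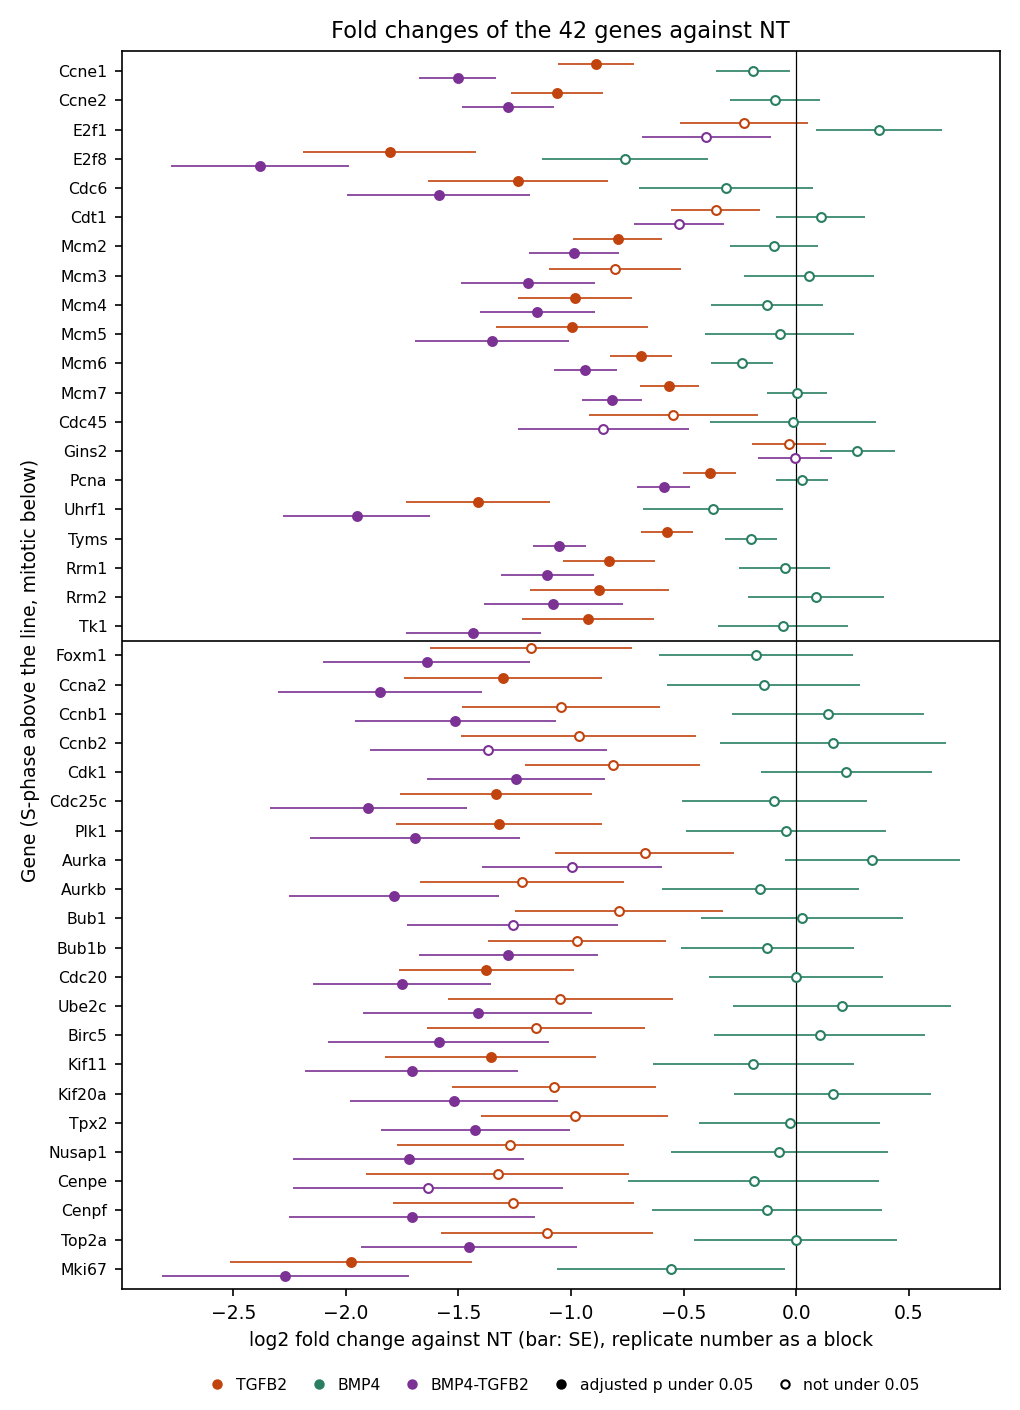
Points are log2 fold changes against NT with the replicate number as a block, bars are SE, and filled points have an adjusted p under 0.05. BMP4 points lie around 0, and BMP4-TGFB2 points lie left of the TGFB2 points for every gene except Gins2, whose mean TPM was nevertheless lower with BMP4-TGFB2 than with TGFB2 (19.1 and 24.1).

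**Figure D4:**
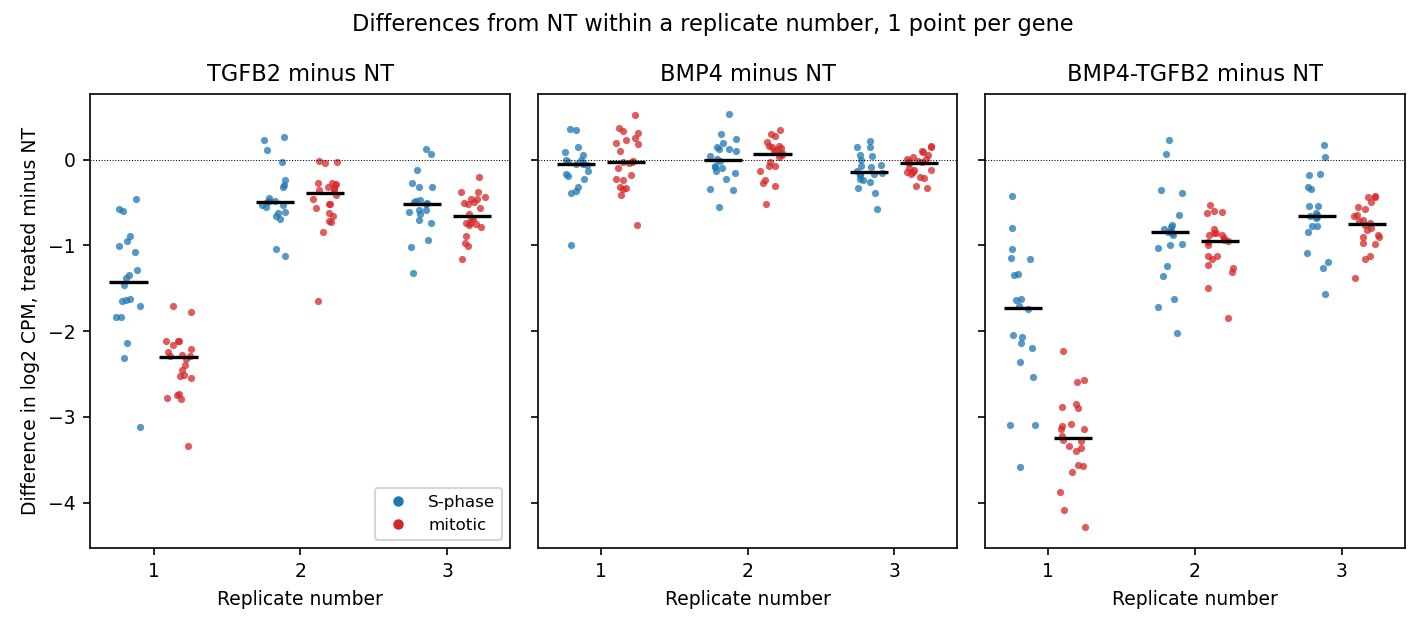
Each point is the difference in log2 CPM between a treated library and the NT library with the same replicate number for 1 gene, and black lines are medians. In replicate 1 the median of the mitotic genes lies below that of the S-phase genes with TGFB2 and with BMP4-TGFB2, the genes of the lists overlap (E2f8 is at -3.12 and Aurka at -1.71 with TGFB2), and BMP4 differences scatter around 0.

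Between BMP4-TGFB2 and TGFB2 no difference passed a test. Of the 42 members, 38 were lower in BMP4-TGFB2 than in TGFB2 within each replicate number in log2 CPM, against 18.8% of all genes, and Gins2 was higher in each. In TPM 40 were lower, Ccne2 and Gins2 being the exceptions, and Gins2 was higher in replicate 1 alone. The median log2 fold change was -0.26 for S-phase and -0.37 for mitotic members, beside 0.00 over all genes. No member passed by group, with the block or without the replicate 1 libraries, where 0%, 0.0392% and 0% of all genes were called in either direction, or with both changes, where 0.0392% were. Limma voom, limma on TPM and DESeq2 called 0, and the count at an unadjusted p under 0.05 was 0 by group, 2 with the block and 18 without the replicate 1 libraries. The share of all genes at that unadjusted threshold is not given here, so the 18 cannot be set against it. The smallest p in the blocked test belonged to Tyms (-0.48 ± 0.12, adjusted p = 0.257) and Ccne1 (-0.61 ± 0.17, adjusted p = 0.363). No member had all libraries of the groups separated, where 3.53% of all genes lay below. Without BMP4-TGFB2 replicate 1 the medians were 0.08 and 0.14, and without TGFB2 replicate 1 they were -0.62 and -0.84. Each of these fits kept replicate 1 in the other group. In the 9 alternatives that left out no library alone, the S-phase median lay between -0.34 and -0.25. The mitotic median lay between -0.53 and -0.34 in them.

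Between BMP4-TGFB2 and BMP4 most members differed with the block. With it 33 members fell in BMP4-TGFB2 relative to BMP4, 17 S-phase and 16 mitotic, where 12% of all genes were called lower. By group alone 0 passed in edgeR, where 4.98% of all genes were called lower, with 8 at an unadjusted p under 0.05, 2 in DESeq2 and 0 in limma voom and limma on TPM. Without the replicate 1 libraries 33 fell, where 4.85% of all genes were called lower, and 29 were the same genes as with the block. With both changes 38 fell, where 9.19% of all genes were called lower. In CPM 20 members had every BMP4-TGFB2 library below every BMP4 library, as had 14.4% of all genes. Within each replicate number 41 of the 42 were lower in log2 CPM, against 28.6% of all genes, Gins2 being the exception, and all 42 were lower in TPM. Median log2 fold changes were -0.89 for S-phase and -1.16 for mitotic members, and -0.54 and -0.66 without BMP4-TGFB2 replicate 1. Ccne1 (-1.31 ± 0.17, adjusted p = 0.000570) and Tyms (-0.85 ± 0.12, adjusted p = 0.000752) had the smallest p with the block.

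Set directly against each other, the members were higher in BMP4 than in TGFB2. All 42 were higher in BMP4 within each replicate number in log2 CPM, against 26.9% of all genes, and 40 in TPM, where Cdc45 and Gins2 were not. The medians were 0.63 for S-phase and 0.83 for mitotic members (0.29 and 0.36 without TGFB2 replicate 1). By group alone 0 passed in edgeR, limma voom, limma on TPM and DESeq2, where 4.16% of all genes were called higher in edgeR, and 0 had an unadjusted p under 0.05. With the block 11 were higher in BMP4, where 10% of all genes were called higher: Ccne1, Ccne2, Mcm2, Mcm4, Mcm6, Mcm7, Pcna, Uhrf1, Tyms, Rrm1 and, of the mitotic genes, Cdc20. Without the replicate 1 libraries 6 were, where 2.73% of all genes were called higher, and Mcm4 and Cdc20 were the members shared by both fits. With both changes 19 were, where 6.73% of all genes were called higher. In CPM Cdt1, Mcm3 and Pcna had every BMP4 library above every TGFB2 library, as 13% of all genes did.

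The interaction asks whether both ligands together departed from the sum of their separate log2 effects. No member passed by group, with the block or without the replicate 1 libraries, in edgeR, where 0.157%, 1.83% and 0.0392% of all genes passed in either direction, or with both changes, where 0.948% did. Limma voom, limma on TPM and DESeq2 called 0, and the count at an unadjusted p under 0.05 was 0 by group and with the block and 8 without the replicate 1 libraries. The medians were -0.23 for S-phase and -0.39 for mitotic members, and both turned to 0.13 without BMP4-TGFB2 replicate 1. That fit kept the replicate 1 libraries of the other groups. Across the 8 alternatives that left out no library alone, the S-phase median lay between -0.26 and -0.18. The mitotic median lay between -0.54 and -0.32 there.

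Several members share exons with a neighbour on the other strand, and the libraries are unstranded. Gins2, which had the smallest log2 fold change with BMP4-TGFB2 in counts (-0.01 ± 0.17) while its mean TPM was 19.1 with BMP4-TGFB2 and 29.2 in NT, shares 2758 exon bases with Gse1, at 147% of its mean CPM. Cdc45 shares 209 bases with Ufd1 at 136%, Kif20a 1271 bases with Cdc23 at 45.2% and Nusap1 172 bases with Oip5 at 13.9%. The values of these genes, of Ccne2, Cdc20, Ccna2 and of Mcm7 are uncertain to the degree that reads were assigned to the partner. The plot of single genes shows the TPM of Gins2 beside that of members that fell.

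**Figure D5:**
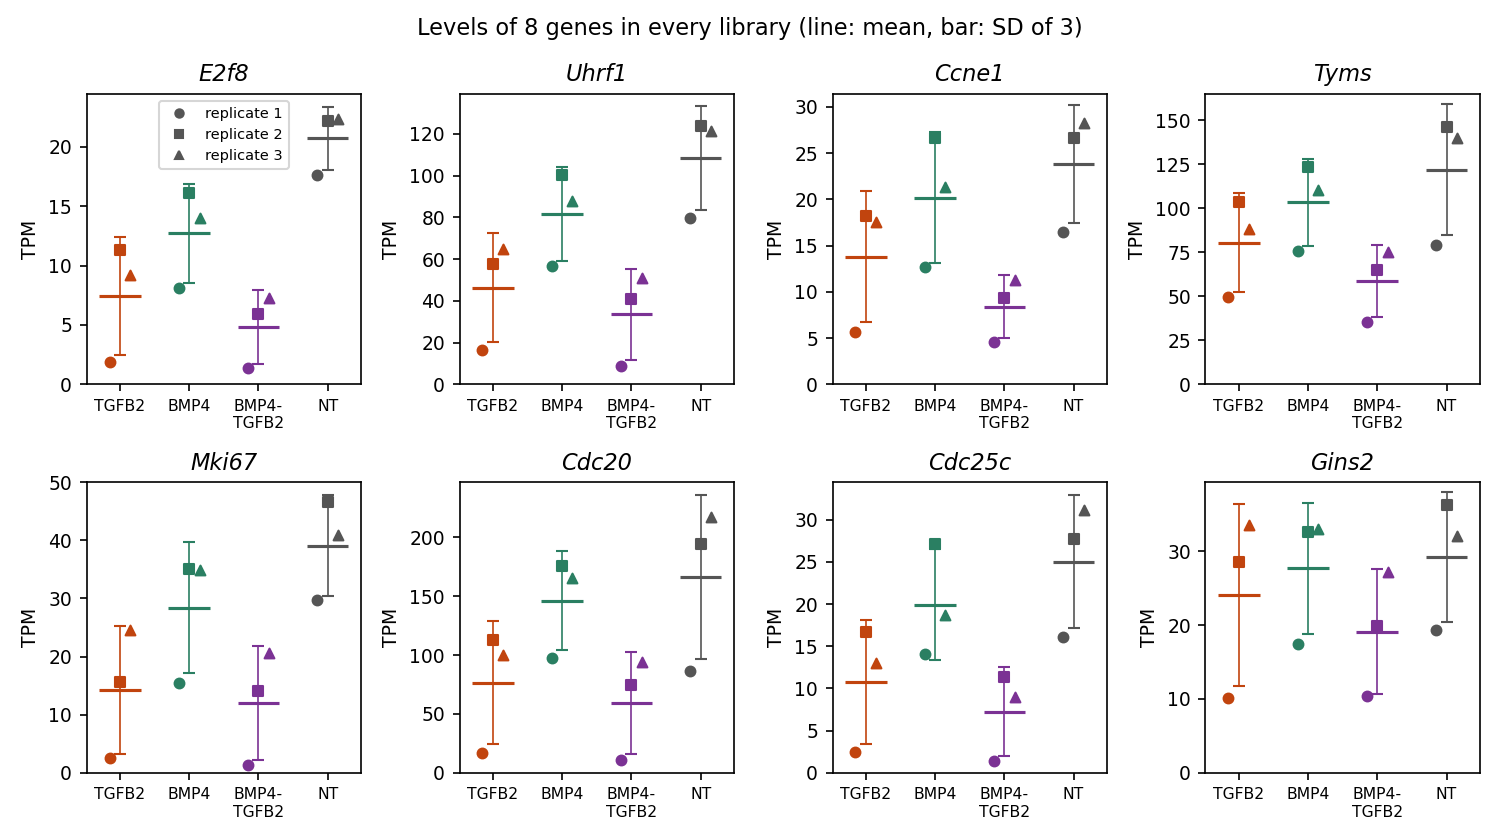
TPM of 8 genes in every library, with the mean (line) and SD of 3 (bar); marker shape gives the replicate number, and vertical axes start at 0. The mean of each of the 8 genes is lowest with BMP4-TGFB2, and in every panel the replicate 1 library is the lowest of its group.

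Cell cycle genes outside the 42 were given from lists of 45 further S-phase genes, 53 further mitotic genes and 12 G1 cyclins, kinases and transcription factors, which share no member with the 42. With TGFB2, 32 of the 45 S-phase and 22 of the 53 mitotic genes fell with the block and none rose, with medians of -0.90 and -1.08, where 19.2% of all genes were called lower. By group alone 2 and 1 fell, where 11.1% of all genes did. With BMP4-TGFB2, 41 and 43 fell with the block, with medians of -1.20 and -1.44, where 21% of all genes were called lower, and 7 and 1 by group alone, where 12.9% of all genes were. With BMP4 alone 1 rose and 2 fell among the S-phase genes and 1 rose and 1 fell among the mitotic genes with the block, where 15.4% of all genes were called in either direction, and none passed by group alone, where 5.44% of all genes did.

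Unlike any member, some of these passed by group alone with TGFB2. Usp1, a deubiquitinase of replication repair, fell by 1.06 on the log2 scale (SE 0.24, adjusted p = 0.00973), with 30.0, 57.5 and 56.3 TPM against 72.2, 84.7 and 102 TPM in NT. The origin-firing kinase gene Cdc7 fell by 1.45 (SE 0.41, adjusted p = 0.0263), with 1.44, 2.62 and 2.27 TPM against 4.04, 6.07 and 6.86 TPM in NT. Psrc1, for a spindle protein, fell by 0.96 (SE 0.20, adjusted p = 0.00585), with 57.5, 87.5 and 61.0 TPM against 135, 150 and 105 TPM in NT. The groups did not overlap in TPM in any of the 3, which were picked for their small p in this comparison. In CPM 19.2% of all genes had every TGFB2 library below every NT library. Kif23, for a motor of cytokinesis, rose with BMP4 with the block (1.09 ± 0.22, adjusted p = 0.00895). It had 116, 235 and 186 TPM with BMP4, against 49.1, 81.6 and 115 TPM in NT. The GINS gene Gins4 rose in that test as well (0.50 ± 0.12, adjusted p = 0.0191). Among the further S-phase and mitotic genes, more fell than rose with BMP4 there, and those that fell are not named here.

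The G1 list differed among its members. Cdk2, the partner kinase of cyclin E, fell by group alone with TGFB2 (-0.81 ± 0.18, adjusted p = 0.00706) and with BMP4-TGFB2 (-0.90 ± 0.18, adjusted p = 0.00343). It had 17.1, 26.0 and 23.6 TPM with TGFB2 and 17.6, 23.5 and 23.7 TPM with BMP4-TGFB2, against 36.9, 43.6 and 40.5 TPM in NT. E2f5, a repressor E2F, fell with TGFB2 (-0.72 ± 0.18, adjusted p = 0.0139) and with BMP4-TGFB2 (-0.91 ± 0.18, adjusted p = 0.00314). The cyclin D gene Ccnd3 fell too (-0.79 ± 0.23 with TGFB2, adjusted p = 0.0307, and -0.97 ± 0.23 with BMP4-TGFB2, adjusted p = 0.0107). The kinase gene Cdk6 fell with BMP4-TGFB2 (-1.0 ± 0.29, adjusted p = 0.0239) and stood at -0.83 ± 0.29 with TGFB2 (adjusted p = 0.0570). Cdk4 (0.04 ± 0.10 with TGFB2 and 0.00 ± 0.10 with BMP4-TGFB2), Myc (-0.07 ± 0.29 and -0.03 ± 0.29) and Ccnd2, under 1 TPM in every library, did not pass by group or with the block. Ccnd1 was at -0.49 ± 0.25 with TGFB2 and -0.45 ± 0.25 with BMP4-TGFB2 by group (adjusted p = 0.194 and 0.213), and it fell with the block (adjusted p = 0.0209 and 0.0217). With BMP4 alone none of the 12 passed by group, and with the block Cdk2 fell (-0.30 ± 0.09, adjusted p = 0.0455).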

How the data were processed

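Poly(A) RNA was captured on oligo(dT) beads before NEBNext Ultra II library preparation, per the labels' protocols. STAR 2.7.5b, Salmon 1.2.1, bcl2fastq 2.17 and the build GRCm38.p6 are named in the submitters' processing notes, without their settings. What the authors deposited are estimated counts per gene, with totals between 28543128 and 42167771 per library, and TPM. The counts were rounded here. The deposited metadata give the libraries as unstranded.

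Tests used edgeR 4.0.16 (quasi-likelihood, TMM, filterByExpr with a minimum count of 10, all 12 libraries in 1 model by group, R 4.3.3), with Benjamini-Hochberg adjustment over all genes tested and a threshold of 0.05. The common biological coefficient of variation was 0.299, and 0.196 with the replicate number as a block. The SE printed is the absolute log2 fold change divided by the square root of the quasi-likelihood F statistic, not a separate estimate. Alternatives were the block, replicates left out, other scaling, no filter, only the groups compared, limma voom, limma on log2(TPM + 0.1) with limma 3.58.1, and DESeq2 1.42.0. The fit with both the block and the replicate 1 libraries left out, and the counts within replicate numbers in TPM, were added after seeing the data.

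Replicate numbers come from the labels, which do not say what they share. Same-numbered libraries, each taken as its difference from its group's mean, correlated above 0.1 in each of the 3 numbers except replicate 2 of TGFB2 with NT (0.0805) and of BMP4-TGFB2 with NT (0.0256). The block stands beside these 2 comparisons all the same, because replicate 1 libraries stood apart.

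The members and lists were chosen with earlier results of these data known. Per-library values are given for Mki67, E2f8 and Uhrf1 and, against NT, for up to 4 S-phase and 4 mitotic members with the smallest p in the blocked test. E2f1 was added with BMP4 outside this rule, as the member furthest above NT. From the other lists, up to 3 with the smallest p were eligible, besides Ccnd1, Ccnd2, Cdk4, Cdk6 and Myc. Promoters printed were chosen after values were seen. No 2 libraries agreed within sampling noise (lowest chi-square per degree of freedom 17.9). Gene positions are from GENCODE M21 on GRCm38.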

Additional observations from a re-analysis of the deposited data

How the results depend on the processing

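Counts of members that passed changed with the model. Relative to the count by group, for TGFB2 against NT (0) it was 21 with the replicate block, 25 with all 4 replicate 1 libraries left out, 32 with both, 2 without the filter for low counts, 1 in DESeq2 and 1 in limma voom. For BMP4-TGFB2 against NT (4) it was 34 with the replicate block, 38 without the replicate 1 libraries, 38 with both, 20 with no filter, 7 in DESeq2 and 0 to 6 when single libraries were left out. For BMP4-TGFB2 against BMP4 (0) it was 33 with the replicate block, 33 without the replicate 1 libraries, 38 with both, 7 with no filter and 2 in DESeq2. For BMP4 against TGFB2 (0) it was 11 with the replicate block, 6 without the replicate 1 libraries and 19 with both. The shares of all genes called with the block, without the replicate 1 libraries and with both stand in the results above. No share is given for the fits without the filter, in DESeq2, in limma voom or with single libraries left out. Their counts therefore cannot be set against a general rise or fall in calls. The cause was not tested. BMP4 against NT, BMP4-TGFB2 against TGFB2 and the interaction had 0 under every alternative run. Pairing was not given by the labels beyond the number, and 16 of 18 pairs of same-numbered libraries correlated above 0.1.

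The median of mitotic members was -1.19 in limma voom for TGFB2 against NT and -1.76 for BMP4-TGFB2 against NT, beyond -0.78 and -1.15 in edgeR. The lowest count of a member in any library was 61.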
